A study of Mus musculus with 5 samples.

Results

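The Zmiz1 locus was described here as the set of all estrogen receptor α (ERα) peaks that overlap 26180000 to 26590000 on mouse chromosome 14 (build mm9, as are all peak positions given). This window takes in Zmiz1, at about 26.28 to 26.49 Mb, with 100 kb on each side. It held 44 of the 17240 ERα peaks called after estradiol and 4 of the 5184 called after vehicle, or 0.255% and 0.0772% of the lists. The locus was chosen by the number of neighbouring estradiol peaks in these same lists, which is highest there when neighbours are less than 12500 bp apart but not under every other definition tried, so its peak numbers and the overlap of the lists are given as a description, with no test.

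Both lists come from chromatin immunoprecipitation and sequencing (ChIP-seq) of whole uterus from wild-type (WT) C57BL/6J mice whose ovaries had been removed. The mice were injected 10 to 14 days after the operation and the tissue was collected 1 hour after the injection. The vehicle group received saline and the estradiol group received 250 ng of estradiol per mouse. Each group is 1 library, made with the same ERα antibody (sc-542). The labels do not say how many animals each library pooled or how old they were. Whole uterus mixes epithelium, stroma, muscle, vessels and blood cells, and peak lists carry no expression values, so neither the tissue label nor the cell type behind a peak could be checked.

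ERα is a nuclear receptor that binds DNA as a dimer, most often at palindromes called estrogen response elements or through other factors already on the DNA. Estradiol increases this binding, and bound sites often lie far from promoters and in groups. Zmiz1 encodes a nuclear protein with a MIZ-type zinc finger, related to the PIAS family of SUMO ligases. It was first studied as a coactivator of the androgen receptor, another steroid receptor, and it is also known as a partner of Notch1. Peaks near a gene do not measure its transcription. The RNA polymerase II and input libraries of the series were not analysed here.

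The promoter of Zmiz1 is shown because the largest group of estradiol peaks began near the start of the gene. It is the RefSeq sequence of the 250 bases before 1 annotated start, on the plus strand of build GRCm38.p6 at chr14:25458935-25459184. That build differs from the build of the peaks, so whether a peak covers these bases was not determined. Capitals mark CG dinucleotides.
Zmiz1 promoter: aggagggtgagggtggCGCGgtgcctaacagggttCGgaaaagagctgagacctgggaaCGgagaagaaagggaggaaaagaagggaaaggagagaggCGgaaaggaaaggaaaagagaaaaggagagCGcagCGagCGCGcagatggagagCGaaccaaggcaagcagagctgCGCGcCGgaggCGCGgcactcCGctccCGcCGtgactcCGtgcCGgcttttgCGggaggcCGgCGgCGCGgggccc
This stretch held 25 CG dinucleotides, against a median of 6 over all 32851 RefSeq promoter stretches of that length. Its content of G and C was 64.8%, against a median of 52.4%. Both strands were searched for 4 motifs. The full estrogen response element, which is GGTCA, any 3 bases and TGACC, was not in it, and 0.0639% of all promoter stretches hold one. Its single arm GGTCA, which the full element contains, was not in it either, and 35.2% of promoters hold one. The AP-1 site TGANTCA (6.75% of promoters) and the Sp1 box GGGCGG (32.7%) had no match. These searches say only that the letters are not in this window.

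Estradiol peaks were spread over 3 parts of the window. Upstream of the gene lay 6 peaks, between 82.5 and 61.6 kb before its approximate start. Near the start or in the first part of the gene lay 30 peaks, of which 2 were within 5 kb of the start bound and 28 were farther in. Past the end of the gene lay 8 peaks. Because the gene bounds are known only to about 10 kb, the 2 peaks next to the start could not be called inside or outside the gene. Vehicle peaks were absent upstream and at the start, numbered 1 in the gene and 3 downstream. The window thus held 11.0 estradiol peaks for each vehicle peak, where the whole lists hold 3.33.

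**Figure D1:**
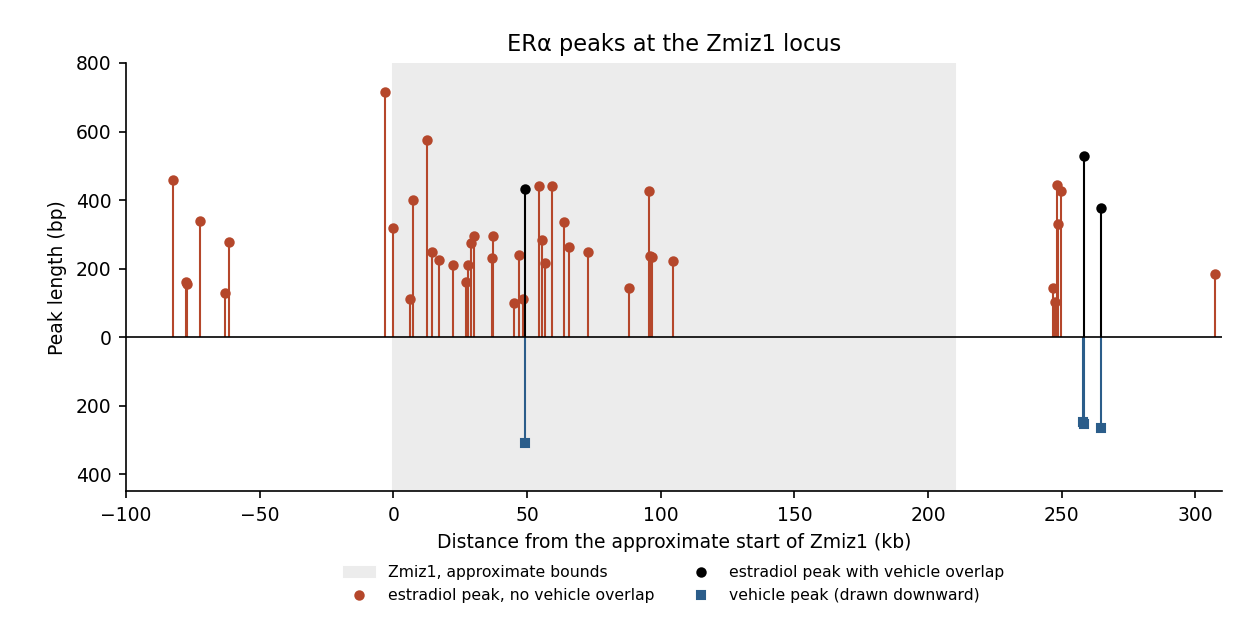
ERα peaks by distance from the approximate start of Zmiz1 (horizontal axis, kb) and length (vertical axis, bp), with the 44 estradiol peaks drawn upward and the 4 vehicle peaks downward, 1 library each. Estradiol peaks fill the first part of the gene up to 105 kb from its start and are missing from the rest of it.

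The distal part of the gene held no peak in either list. The last estradiol peak in the gene ended 105 kb from the approximate start, and the next one began 142 kb later, at 26526491. About 105 kb of the 210 kb gene lay in this stretch. Over the whole estradiol list, 79.3% of gaps between neighbouring peaks were shorter than this one, so such a stretch is not rare. The second widest gap, of 58.2 kb, separated the upstream peaks from those at the gene start. In the vehicle library, 166 kb without a peak preceded the single vehicle peak of the gene and 209 kb without one followed it. Of the gaps in the vehicle list, 55.0% and 59.7% were shorter than these.

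The largest group held 25 estradiol peaks over 76.3 kb, from 26276673 to 26352923. A group, or run, is here a series of 5 or more peaks in which neighbours lie less than 12500 bp apart. All 44 estradiol peaks of the window belonged to such runs, against 14.6% of the estradiol list. The last of them belonged to a run of 10 that continued beyond the window. Because the locus was chosen for its neighbouring peaks, this share is a description. The run began 2.97 kb before the approximate gene start, counted from the centre of its first peak, and ended 72.9 kb after it. Gaps inside it had a median of 1.97 kb and ran from 0.228 to 7.60 kb, with 7 of the 24 gaps under 1 kb and 5 over 5 kb. The gap before the run was 58.2 kb and the gap after it 15.3 kb, just above the limit of 12500 bp.

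The run opened with its longest peak. This peak, the first in the run and the longest of the whole window, was 714 bp from 26276673 to 26277386, longer than or equal to 98.6% of the estradiol list. A peak of 319 bp from 26279888 to 26280206 followed, and these were the peaks nearest to the approximate gene start. Neither had a vehicle peak nearby: the nearest lay 51.6 and 48.8 kb away.

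Farther into the gene the peaks were mixed in length. The second longest of the window, 575 bp from 26292469 to 26293043, lay 12.8 kb from the approximate gene start. Between it and the site that was also called after vehicle, 12 peaks of 101 to 294 bp were listed. Peaks of 441 bp (26334299 to 26334739) and 440 bp (26339172 to 26339611) lay on the far side of that site. The last peak of the run was 249 bp long, from 26352675 to 26352923. Counted in steps of 10 kb from the start of the run, the numbers of peaks were 3, 3, 2, 4, 3, 6, 3 and 1. The run was thus filled along its length, with its highest number between 50 and 60 kb.

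Only 1 of the 25 peaks in the run overlapped a vehicle peak by at least 1 bp, a share of 4.0% (95% Wilson interval 0.71 to 19.5, counting error only). Over the whole window the count was 3 of 44, or 6.82% (2.35 to 18.2). In the whole estradiol list 21.2% of peaks had such an overlap, and among all estradiol peaks in runs 19.0% had one. The vehicle peak of the run was 310 bp, from 26328968 to 26329277, and lay 49.1 kb into the gene. Of the 24 estradiol peaks without an overlap, 17 lay before it and 7 after it. Their centres were at a median of 19.5 kb from its centre and at most 52.1 kb away, with 6 within 10 kb.

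Vehicle overlaps were then counted by peak length. Of the 11 estradiol peaks of 400 bp or more, 2 overlapped a vehicle peak, where 44.6% of such peaks in the whole list did. Of the 5 peaks from 300 to under 400 bp, 1 overlapped, against 32.5% of the list. None of the 17 peaks from 200 to under 300 bp or of the 11 peaks from 100 to under 200 bp did, against 18.0% and 10.5%. Each of these classes holds few peaks, and none was tested against the share of the list. These counts come from the same lists in which the locus was picked for its neighbouring estradiol peaks. Read numbers are not known for either library, and a difference in depth or ChIP yield between the 2 libraries and the effect of estradiol cannot be told apart.

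All 4 vehicle peaks of the window overlapped an estradiol peak (95% Wilson interval 51.0 to 100%), where 71.3% of the vehicle list did. No site of the locus was called after vehicle alone. The 4 vehicle peaks fell on 3 estradiol peaks, 1 in the gene and 2 downstream.

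At the site in the gene, the estradiol peak was 431 bp, from 26328869 to 26329299. It was 1.39 times as long as the vehicle peak and contained it, reaching 99 bp farther on the side of the gene start and 22 bp farther on the other. The centres of the 2 peaks were 38.5 bp apart. A shorter estradiol peak of 110 bp, from 26328511 to 26328620, ended 0.347 kb before the vehicle peak and was not overlapped by it.

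At the first downstream site, an estradiol peak of 529 bp from 26537909 to 26538437 met 2 vehicle peaks. The first, 247 bp from 26537899 to 26538145, began 10 bp before it. The second, 254 bp from 26538170 to 26538423, lay inside it, and 24 bp separated the 2 vehicle peaks. Across the whole estradiol list, 51 peaks overlapped 2 or more vehicle peaks, which is 1.39% of those with any overlap.

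At the last shared site, an estradiol peak of 376 bp from 26544660 to 26545035 contained a vehicle peak of 266 bp from 26544708 to 26544973. It was 1.41 times as long and extended 48 and 62 bp beyond it, and the centres were 7 bp apart. Both sites of the locus where 1 vehicle peak met 1 estradiol peak therefore had the longer peak after estradiol, as did 74.8% of the 3584 such sites in the lists. Both had the vehicle peak contained in the estradiol peak, which held for 63.4%. The length ratio at these 3584 sites had a median of 1.29 and quartiles of 1.00 and 1.75, and the offset of the centres a median of 17 bp and quartiles of 8 and 34.5 bp. Both length ratios of the locus lay between those quartiles, and the offsets of 38.5 and 7 bp lay just outside theirs.

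**Figure D2:**
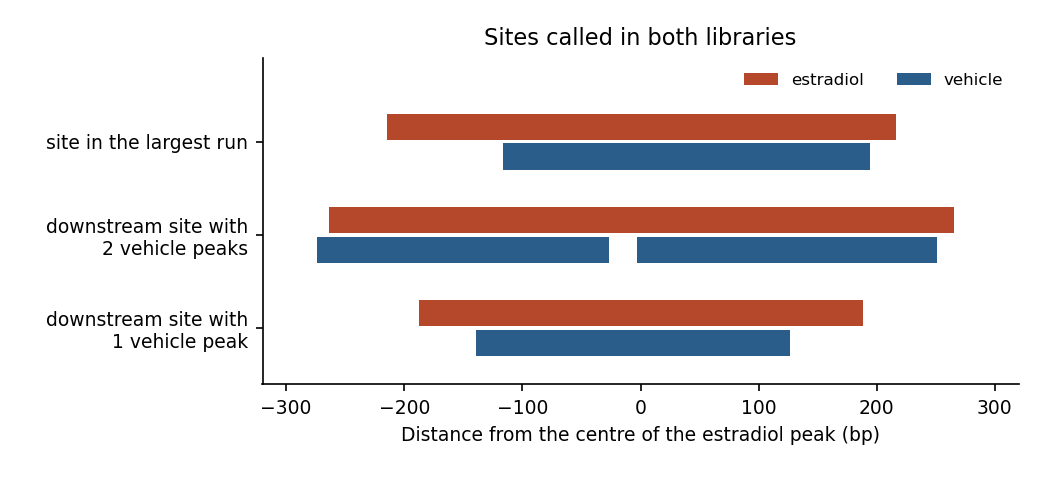
The 3 sites of the Zmiz1 locus called in both libraries, with each peak drawn to scale by its distance from the centre of the estradiol peak (horizontal axis, bp) and 1 library per condition. The estradiol peaks of 431, 529 and 376 bp span nearly all of the vehicle peaks below them.

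The groups outside the largest run were smaller. The upstream run held 6 peaks over 21.3 kb, from 26197222 to 26218500. It began with a peak of 459 bp (26197222 to 26197680), the fourth longest of the window, and ended with one of 278 bp (26218223 to 26218500). Its other members were 129 to 339 bp long. No vehicle peak lay within 34 kb of it, the nearest being 34.3 kb before its first peak.

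A run of 5 peaks lay deeper in the gene, over 16.6 kb from 26368210 to 26384802. Its longest peak, 426 bp from 26375302 to 26375727, stood 0.008 kb before a peak of 238 bp, the narrowest gap of the window. The last peak of this run, 223 bp from 26384580 to 26384802, was also the last in the gene. No vehicle peak lay within the run, and the nearest was 38.9 kb from it.

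The downstream run held 7 estradiol peaks over 18.5 kb, from 26526491 to 26545035, and all 3 downstream vehicle peaks. It opened with peaks of 144 bp (26526491 to 26526634) and 102 bp. Peaks of 445 bp (26527862 to 26528306), 330 bp and 426 bp (26529577 to 26530002) came next, without a vehicle overlap, and the 2 shared sites closed the run. Of its 7 peaks, 2 overlapped a vehicle peak, a share of 28.6% (95% Wilson interval 8.22 to 64.1), which rests on few peaks. In the order of RefSeq genes (GRCm38), Zmiz1 is followed by Gm45915, Ppif, Zcchc24 and Anxa11 and preceded by Rps24. Ppif encodes cyclophilin D, a regulator of the mitochondrial permeability transition pore, and Rps24 encodes a ribosomal protein. Which of these genes the downstream peaks lie in or near was not determined, because no mm9 annotation was used here.

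The median length in the locus was near that of the whole list, and long peaks made up more of the locus than of the list. The 44 estradiol peaks had a median of 256 bp (95% interval of the median 225 to 319) and quartiles of 203 and 382 bp, against 242 bp (240 to 244) and quartiles of 183 and 317 bp in the list. Of the 44, 24 lay above the median of the list and 10 were among its longest 10%. Peaks of 400 bp or more were 11 of the 44, or 25.0%, against 11.7% of the list. This was not particular to the locus. The largest run held 6 such peaks among its 25, and the runs ranked 2, 3 and 4 by number of peaks held 8 of 24, 10 of 21 and 8 of 19. In the largest run the median was 263 bp (225 to 319), with a shortest peak of 101 bp. Over all estradiol peaks in runs the median was 285 bp. Together the 44 peaks covered 12.7 kb, or 3.10% of the window, and the 4 vehicle peaks 1.08 kb.

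The number in each deposited peak name went with peak length, in the locus as in the whole list. The lowest 5480 estradiol numbers follow genome order, and 17 of the 44 peaks (38.6%, against 31.8% of the list) had numbers in that block, from 3194 to 3210. These 17 peaks were 278 to 714 bp long, with a median of 426 bp, and the other 27 were 101 to 426 bp, with a median of 216 bp. In the whole list the medians were 354 bp in the block and 203 bp above it. All 3 peaks with a vehicle overlap were among the 17. In the whole list, 34.6% of peaks in the block and 15.0% of the others overlapped a vehicle peak. What the numbers stand for is not stated in the sources used here.

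Set beside the 363 runs of the estradiol list, the run at Zmiz1 stood first by number of peaks, in place 3 by span and in place 156 by density. Its density of 3.28 peaks per 10 kb was close to the median of 2.98 over all runs. Most of those are much shorter, with a median span of 21.3 kb, and short runs can reach high densities. The runs in places 1 and 2 by span had 1.91 and 1.95 peaks per 10 kb. Among the 10 runs with at least 15 peaks, densities ran from 1.91 to 5.09 per 10 kb. The next by number were on chromosome 5 from 114020123 to 114086273 (24 peaks, 3.63 per 10 kb), on chromosome 5 from 35959535 to 36030082 (21 peaks, 2.98 per 10 kb) and on chromosome 15 from 83458800 to 83525863 (19 peaks, 2.83 per 10 kb). Median peak lengths in these runs were 297, 382 and 369 bp, against 263 bp at Zmiz1. Of their peaks, 8.33%, 28.6% and 31.6% overlapped a vehicle peak, with 95% Wilson intervals of 2.32 to 25.8, 13.8 to 49.96 and 15.4 to 54.0. Each of these intervals meets that of the Zmiz1 run, and the differences were not tested. Of the 10 runs with at least 15 estradiol peaks, 4 held at most 1 vehicle peak, Zmiz1 among them, and the others held up to 6.

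The first place depended on how a run was defined. With gaps under 5 kb the largest run of the locus had 10 peaks (26324959 to 26345743) and the largest of the list 13. With gaps under 25 kb it had 30 against 31. Among peaks at least as long as the median of the list it had 10 against 16. With only the 5184 longest estradiol peaks kept, to equal the vehicle list, the largest run of the window held 5 peaks and was the downstream one, and 8 peaks remained within the bounds of the run in the gene.

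**Figure D3:**
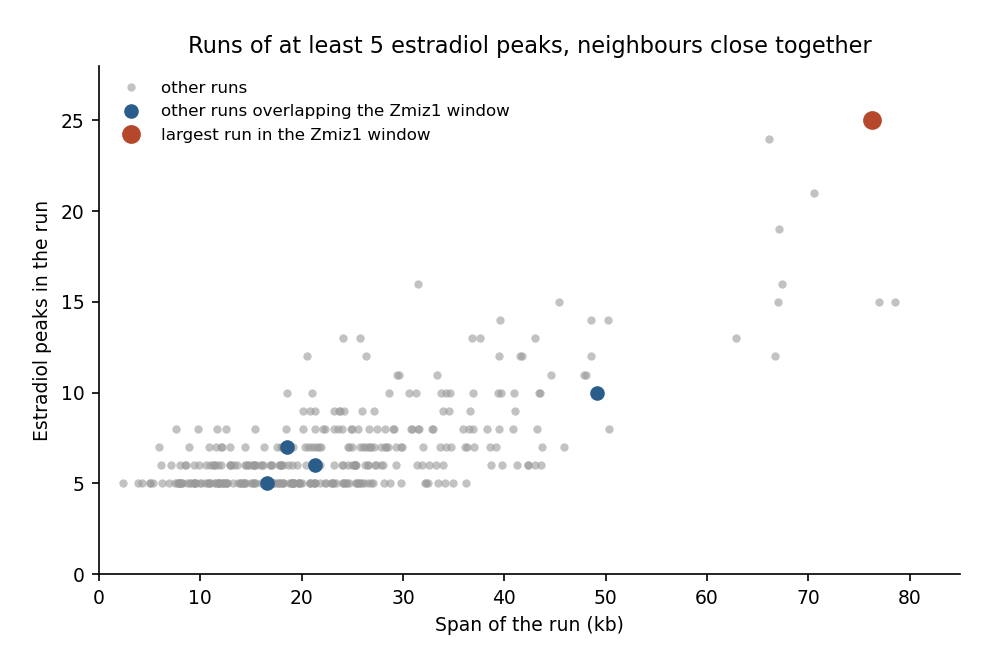
Each of the 363 runs of at least 5 estradiol peaks by span (horizontal axis, kb) and number of peaks (vertical axis), from the 1 estradiol library. The largest run of the Zmiz1 window has 25 peaks over 76.3 kb, above the next at 24, and the 4 other runs that overlap the window have 5 to 10.

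Stretches of the same length elsewhere rarely held as many estradiol peaks. The genome was divided into tiles of 410 kb from the start of each chromosome, and the 3734 tiles with any peak, apart from 2 that share positions with the locus, were counted. They held a median of 3 estradiol peaks (upper quartile 6) and at most 49, and 1 of them had 44 or more. The window was centred on a locus picked for its peaks, whereas the tiles were not, so this is a description. The 4 vehicle peaks were also above the median of 1 per tile, but less rare: 361 tiles (9.67%) had at least 4. The 136 tiles with exactly 4 vehicle peaks held 1 to 39 estradiol peaks, with a median of 8.5. Among the 26 tiles with at least 25 estradiol peaks, vehicle peaks numbered 1 to 23 with a median of 5.5, and 11 of these tiles had 4 or fewer.

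**Figure D4:**
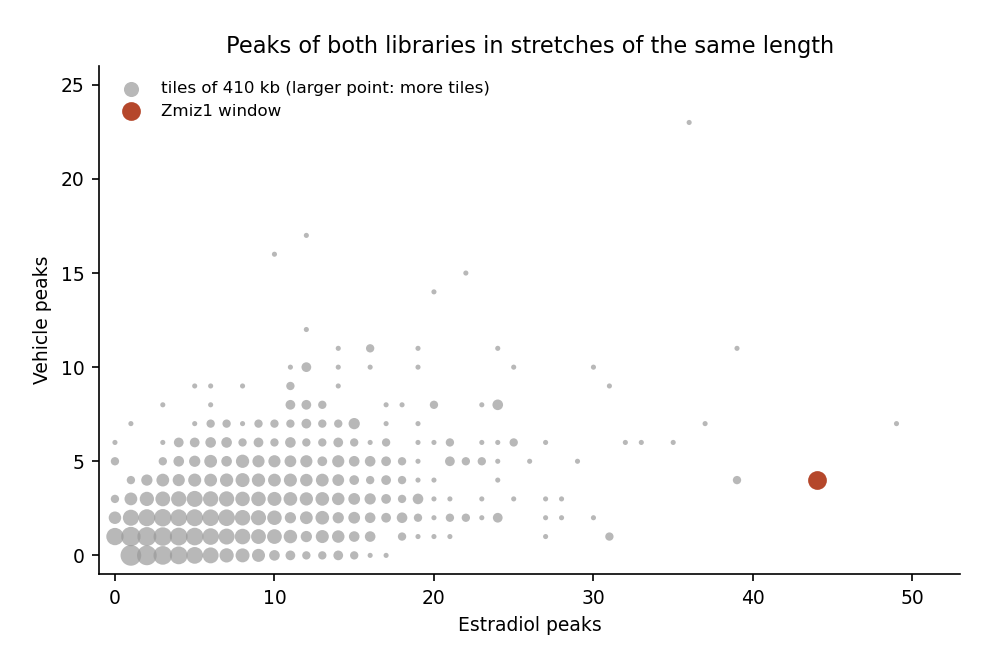
Estradiol peaks (horizontal axis) and vehicle peaks (vertical axis) in 3734 tiles of 410 kb, where larger points stand for more tiles, and in the Zmiz1 window, from 1 library per condition. The Zmiz1 window, with 44 and 4, lies to the right of nearly all tiles but at a height that 136 of them share.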

How the data were processed

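The authors deposited 1 ERα peak list per library, with chromosome, start, end and a peak name. The coordinates are on mm9, per the file headers. The submitters' processing notes name mm9 and Partek, with no role. No source used here states the aligner, the caller and its settings, or whether input served as control. The lists hold no score or read count, so depth is unknown and intervals cover counting error over peaks only, as if peaks were independent. Starts were counted from 1, taking the deposited starts as counted from 0.

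Members were peaks overlapping the window by at least 1 bp. Peak length was end minus deposited start. Overlaps were counted in Python 3.11.15 (numpy 2.4.6, pandas 2.3.3) and gave the same numbers with bedtools 2.31.1. Shares carry 95% Wilson intervals (scipy 1.17.1). Medians carry exact binomial intervals of their order statistics. On simulated data, 200 of 200 planted overlaps and 30 of 30 planted runs were recovered. They were planted to meet the definitions used, so this checks the code only. With 1 library per condition no test was made.

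The locus, measures and alternatives were chosen with earlier results of these lists known. The text names each vehicle peak, each estradiol peak that overlaps one, the 10 longest estradiol peaks, the ends of the largest run and the peaks beside the widest gaps. Peaks named beyond these were chosen after their values were seen. Tiles, length bands and promoter motifs were also added then. Motifs in peaks and a planned list of genes working with Zmiz1 were not analysed, for want of an mm9 sequence and annotation here.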

Additional observations from a re-analysis of the deposited data

How the results depend on the processing

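With no flank around the gene the window held 29 estradiol peaks and 1 vehicle peak. With peaks shorter than the median of their list left out it held 24 estradiol peaks, and with only the 5184 longest estradiol peaks kept it held 16. Keeping fewer peaks lowers these counts by construction. The largest run of the window held 10 peaks with gaps under 5 kb, where it ranked 3 by number of peaks, tied with 2 other runs. Without the shorter peaks it held 10 and ranked 7, tied with 4 others. Among the 5184 longest peaks the largest was the downstream run, with 5 peaks and rank 26, tied with 33 others. The run at the gene ranked 3 with gaps under 25 kb and 1 with neighbouring peaks joined. Of the 4 vehicle peaks, 2 (50.0%) still met an estradiol peak with an overlap of at least 50% of each peak required. Each of the 2 vehicle peaks under 1 estradiol peak covers too little of it. The share of the vehicle list under this rule was not counted, and the 71.3% given above is for an overlap of 1 bp. The share of estradiol peaks with a vehicle overlap ranged from 3.45% (1 of 29, no flank) to 3 of 24 (shorter peaks left out) over the alternatives run. The share of the whole estradiol list was not counted with shorter peaks left out or under another overlap rule. The 21.2% given above is for peaks of all lengths and an overlap of 1 bp. Longer peaks of the list overlapped more often, so 3 of 24 cannot be set against it. The median length was between 249 and 281 bp under each alternative run. The motif alternative was not run for lack of an mm9 sequence. No paired analysis was possible because each condition is 1 library, and for the same reason no replicate could be left out.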

Other observations

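The far edge of the window cut through a further run. Its first estradiol peak, 183 bp from 26587174 to 26587356, was the last in the window, and the run continued to 26636292 with 10 estradiol peaks in all. That run held 5 vehicle peaks, 4 of them with an estradiol overlap, and 40.0% of its estradiol peaks overlapped a vehicle peak (95% Wilson interval 16.8 to 68.7). The nearest estradiol peaks outside the window were 403 bp long, 6.34 kb before it, and 303 bp long, 5.87 kb after it. The nearest vehicle peaks outside were 169 bp long, 17.0 kb before it, and 226 bp long, 16.5 kb after it.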
